A study of Homo sapiens and Mus musculus with 21 samples.

Results

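Human transcripts of SW620 Cas9 tumours were compared with those of SW620 Mock tumours, the 2 control forms of the same colon carcinoma line, each meant as the baseline of a different Wnt perturbation. The comparison takes 6 of the 21 samples of the series by their labels, 3 Cas9 and 3 Mock libraries, out of 18 xenograft samples with human values. SW620 is an established line from a lymph node metastasis of a colon adenocarcinoma, with a truncated APC protein and constantly active beta-catenin. Cas9 tumours grew from SW620 cells that went through a mock CRISPR/Cas9 transfection and a cell sort, the control for LRP6KO, in which the Wnt co-receptor LRP6 was targeted and cells with low surface LRP6 were sorted. LRP6KO cells were also selected with puromycin, and the labels do not say whether Cas9 cells were. Mock tumours grew from SW620 cells given a mock lentivirus, the control for dnLEF1, in which lentivirus brought in a dominant negative LEF1. Neither a promoter for these constructs nor a clonal origin is stated in the labels. All 4 SW620 groups, with 3 samples each, were implanted in the caecum wall of NSG mice, which lack mature T, B and natural killer cells but keep myeloid cells. The caecum was taken after 28 days, and its RNA was made into Smart-seq2 full-length cDNA libraries when the RNA integrity number was at least 9. The design speaks of biological triplicates, but no label ties a sample to an animal of its own; the p-values therefore speak only of the spread among these samples.

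Neither control carries a perturbation aimed at Wnt signalling. In that pathway Wnt ligands bind Frizzled receptors with LRP6, beta-catenin is spared from the APC and AXIN destruction complex, and with TCF and LEF factors it switches on targets such as AXIN2. Cells of a tumour also answer to oxygen: when it is short, the HIF factors are stabilised and induce carbonic anhydrase, glycolytic enzymes and regulators of mitochondrial turnover. HIF can bind the letters ACGTG in DNA, the only form of its core that was searched here. Carcinoma lines carry rearranged chromosomes, and separately passaged forms of a line can come to differ in the copies of a chromosome stretch; RNA values do not measure copies.

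The values are TPM, transcript abundances scaled by length and to a fixed sum in each library, so the sequencing depth is unknown and every value is a share of the library's human RNA. Changes are given as differences of mean log2(TPM + 1), Cas9 minus Mock, which understate the change of low genes. The libraries held 26374 to 29691 genes above 0 in Cas9 and 26388 to 29547 in Mock. Human mitochondrial transcripts, rRNA included, made up 13.7%, 9.54% and 11.5% of TPM in Cas9 replicates 1 to 3, against 7.72%, 7.21% and 8.41% in Mock, with no overlap. Colon carcinoma markers were present in all 6 libraries, with EPCAM at 290.1 to 319.2 TPM in Cas9 and 345.4 to 499.5 TPM in Mock. The adhesion gene CDH17 was nearly absent (0.13 to 0.48 TPM in Cas9, 0.24 to 0.40 TPM in Mock), and CDX2 was low, at 3.00 to 4.68 TPM in Cas9 and 1.30 to 2.33 TPM in Mock. Markers that a carcinoma line should lack summed to 14.2 to 21.6 TPM in Cas9 against 20.6 to 21.6 TPM in Mock for 12 fibroblast genes, with POSTN and FAP at 0 in every Cas9 library. The sums were 8.47 to 11.3 TPM in Cas9 against 8.43 to 14.2 TPM in Mock for 8 endothelial genes, with TEK at 0 in both groups. They were 28.3 to 33.7 TPM in Cas9 against 21.4 to 32.0 TPM in Mock for 10 leukocyte genes, with CD3E and TYROBP at 0 in Cas9, and 33.5 to 48.9 TPM in Cas9 against 37.9 to 49.2 TPM in Mock for 8 muscle and nerve genes. The part of the mitochondrial share and of these transcripts in the results was not tested, except that all 14 genes called below were still called after the mitochondrial genes were removed and TPM rescaled. In such bulk tissue fewer cells of a type and less RNA per cell cannot be told apart.

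LRP6 and LEF1, the targets of the perturbations that the controls serve, were measured first. LRP6 was at 10.9, 17.8 and 17.5 TPM in Cas9 tumours, against 13.0, 20.4 and 14.4 TPM in Mock tumours. The groups overlapped (difference of -0.05, SE 0.22; limma adjusted p 0.977), and the sign of this small difference changed in 3 of 15 alternative settings. In the libraries labelled LRP6KO the transcript was at 21.1, 18.8 and 17.4 TPM, not lower than in either control. The labels describe a sort on surface protein, which transcript levels do not check. LEF1, a Wnt-responsive TCF factor, was at 2.57, 2.26 and 2.30 TPM in Cas9, against 0.30, 0.80 and 0.59 TPM in Mock. All 3 Cas9 values were above all 3 Mock values, but the difference of 1.12 (SE 0.22) did not pass the threshold (limma adjusted p 0.105). In dnLEF1 tumours, given a dominant negative form of this gene, LEF1 was at 18.3, 22.5 and 24.0 TPM.

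Few genes passed the adjusted threshold between the 2 controls. Of 19196 human genes that reached 1 TPM or more in 3 or more SW620 libraries, 14 were called at a Benjamini-Hochberg adjusted p under 0.05 in limma (0.0729% of those tested). DPEP1 and the pseudogene AP005018.2 rose in Cas9 tumours (0.0104%), and 12 genes fell (0.0625%). Those that fell included the hypoxia marker CA9, the keratins KRT81 and KRT86, the annexin ANXA1, the galectin LGALS1, the linker histone HIST1H1D, the ATP synthase subunit ATP5MF and the ribosome methylation factor BUD23. At an unadjusted p under 0.05 the count was 1820 genes (9.48%), and the 3 Cas9 values did not overlap the 3 Mock values in 3014 genes (15.7%). The list of called genes rested on the whole set of libraries: 0 genes were called by limma without Cas9 replicate 1 (1203 at an unadjusted p under 0.05), 0 without Cas9 replicate 3 (1434) and 3 without Cas9 replicate 2. Leaving out Mock replicate 1, 2 or 3 left 4, 1 and 4 called genes in that order. It was 0 with the SW480 groups in the fit (1154 at an unadjusted p under 0.05) and 124 with libraries weighted by their quality, and every called gene kept its direction in each setting that gave it a value. The balance of the calls changed with the setting: 5 were higher and 3 lower with Cas9 and Mock alone in the fit, 8 were higher and 13 lower without the mitochondrially encoded genes, and 1 was higher and 2 lower after median-ratio scaling.

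CA9 encodes carbonic anhydrase IX, a cell surface enzyme that acidifies the surroundings of oxygen-poor tumour cells and is a standard HIF target. CA9 (ENSG00000107159.12, GRCh38 chromosome 9, 35673856 to 35681159) was at 72.2, 110.5 and 84.7 TPM in Cas9 tumours, against 161, 240.4 and 214 TPM in Mock tumours. Every Cas9 value was below every Mock value, and CA9 fell by 1.2 on the log2 scale (SE 0.17, limma adjusted p 0.039). LRP6KO tumours were near Cas9, at 99.3, 114 and 98.6 TPM, and dnLEF1 tumours lay between, at 160.0, 131 and 130.3 TPM. CA9 stood higher in Mock than in each of the other 9 SW620 libraries, by a narrow margin over dnLEF1 replicate 1. Of 50-base stretches of CA9 transcripts, 30.3% also occur in the overlapping gene ARHGEF39, whose level did not separate the groups (13.5 to 19.7 TPM in Cas9, 15.8 to 17.4 TPM in Mock, difference of -0.02, limma unadjusted p 0.903). CA9 stayed called without Cas9 replicate 2 and without Mock replicate 1, and missed the threshold without any one of the other 4 libraries.

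The promoters of CA9 and of DDIT4, the mTOR inhibitor with the next smallest p in the hypoxia list, show where the letters ACGTG lie in genes of that list. The related letters GCGTG were not searched or marked, and they occur in the DDIT4 promoter below. Each runs from 250 bases before to 50 bases after the start in the RefSeq annotation of GRCh38.p14, on the plus strand, and capitals mark ACGTG or its reverse complement CACGT; the palindrome CACGTG holds both. CA9 is at chr9:35673678-35673977 with the match 18 bases before the start, and DDIT4 is at chr10:72273674-72273973 with the match 125 bases before it.
CA9: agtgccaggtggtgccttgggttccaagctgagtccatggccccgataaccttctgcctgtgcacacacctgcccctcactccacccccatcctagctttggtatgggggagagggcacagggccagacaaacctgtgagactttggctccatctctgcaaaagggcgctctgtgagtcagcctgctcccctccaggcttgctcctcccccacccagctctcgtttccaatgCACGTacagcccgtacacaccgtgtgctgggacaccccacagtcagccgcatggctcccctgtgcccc
DDIT4: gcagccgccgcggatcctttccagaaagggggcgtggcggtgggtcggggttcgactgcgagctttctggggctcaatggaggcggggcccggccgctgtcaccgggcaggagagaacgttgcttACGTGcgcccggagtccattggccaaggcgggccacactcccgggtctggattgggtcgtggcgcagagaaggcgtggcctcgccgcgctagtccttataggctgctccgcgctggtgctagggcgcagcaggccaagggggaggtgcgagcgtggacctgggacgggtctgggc
The letters ACGTG on either strand occur in 21.6% of the 27305 promoters of this length. They occur in 9 of the 17 promoters found for the 20 genes of the hypoxia list (52.9%) and in 8 of the 20 found for the 22 glycolysis genes (40.0%), lists that hold known HIF targets. Of the 14 called genes 7 had a promoter in the table, and 2 of these hold the letters (28.6%). Of the hypoxia genes with an unadjusted p under 0.05, P4HA1 and ERO1A hold them as well, and EGLN3 and KDM3A do not hold them in this window.

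**Figure D1:**
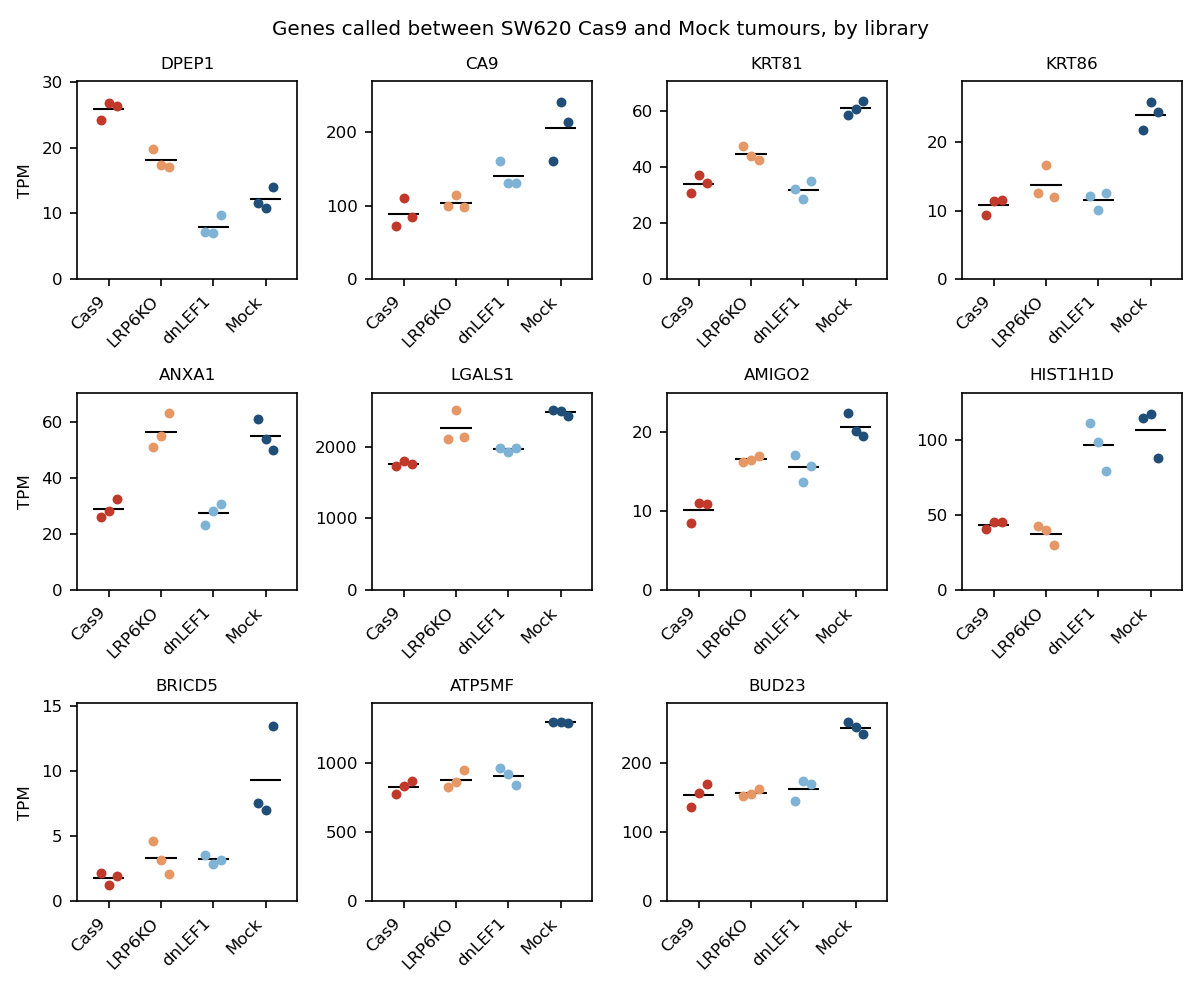
TPM of 11 called genes (y axis) in each SW620 library by group (x axis: Cas9, LRP6KO, dnLEF1, Mock); points are libraries and bars are means of 3. DPEP1 is higher in Cas9 than in Mock, and the other 10 genes are lower in Cas9 without overlap. KRT81, KRT86, BRICD5, ATP5MF and BUD23 stand higher in Mock than in all other libraries, whereas HIST1H1D is low in Cas9 and LRP6KO and ANXA1 is low in Cas9 and dnLEF1.

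KRT81 and KRT86 encode hair-type keratins of the type II family that carcinoma cells can express. KRT81 (ENSG00000205426.10, chromosome 12, 52285913 to 52291534) was at 30.8, 37.3 and 34.2 TPM in Cas9, against 58.7, 60.9 and 63.7 TPM in Mock. KRT86 (ENSG00000170442.11, chromosome 12, 52249300 to 52309163), whose span includes KRT81, was at 9.41, 11.4 and 11.5 TPM in Cas9, against 21.7, 25.9 and 24.4 TPM in Mock. Both fell without overlap, by 0.83 (SE 0.11) and 1.09 (SE 0.16) on the log2 scale (limma adjusted p 0.039 each). Their transcripts are alike: 37.6% of the 50-base stretches of KRT81 also occur in KRT86, so reads may have been split between them and the 2 calls are not separate evidence. All 6 LRP6KO and dnLEF1 libraries lay below Mock in both genes (28.5 to 47.6 TPM for KRT81, 10.1 to 16.7 TPM for KRT86).

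Other keratins were examined because these were called. Of 16 keratin genes tested 13 were below 0 (median of -0.30, against -0.03 over all genes, of which 54.1% were below 0), and 2 were called. At an unadjusted p under 0.05 in limma, 7 were lower and 2 higher, beside 4.98% and 4.5% of all genes. KRT81 and KRT86, which prompted the look, are counted in the 13 and in the 7. KRT19, a simple-epithelial keratin, was at 1423, 1847 and 1556 TPM in Cas9, against 2116, 2554 and 2389 TPM in Mock. These values did not overlap, but the difference of -0.55 (SE 0.10) did not pass (limma adjusted p 0.0695). KRT7 was at 74.4, 85.9 and 74.4 TPM in Cas9, against 122, 153 and 127 TPM in Mock. KRT23 ran the other way, at 82.0, 76.7 and 87.2 TPM in Cas9, against 62.5, 46.4 and 57.6 TPM in Mock.

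ANXA1 encodes annexin A1, a calcium-dependent membrane-binding protein with anti-inflammatory activity, and LGALS1 encodes galectin-1, a secreted lectin that binds cell surface sugars. ANXA1 (ENSG00000135046.13, chromosome 9, 73151757 to 73170393) was at 26.3, 28.2 and 32.6 TPM in Cas9, against 61.0, 53.8 and 50.2 TPM in Mock. ANXA1 fell by 0.90 (SE 0.14, limma adjusted p 0.0498), and this is the called gene nearest the threshold. The other pair of SW620 groups split in this gene as well: LRP6KO had 51.2, 55.1 and 63.3 TPM, near Mock, and dnLEF1 had 23.3, 28.2 and 30.9 TPM, near Cas9. LGALS1 (ENSG00000100097.11, chromosome 22, 37675608 to 37679806) was at 1729, 1806 and 1763 TPM in Cas9, against 2508, 2496 and 2434 TPM in Mock. LGALS1 fell by 0.49 (SE 0.07, limma adjusted p 0.039), the smallest change among the called genes, and the 3 Cas9 libraries were the lowest of all 12. AMIGO2 (ENSG00000139211.6, chromosome 12, 47075707 to 47079951), a cell adhesion protein with leucine-rich repeats, was at 8.50, 11.0 and 10.9 TPM in Cas9, against 22.5, 20.1 and 19.6 TPM in Mock. It fell by 0.97 (SE 0.14, limma adjusted p 0.039), and LRP6KO and dnLEF1 libraries lay between the controls, from 13.7 to 17.2 TPM.

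HIST1H1D encodes a replication-dependent linker histone that binds DNA between nucleosomes. HIST1H1D (ENSG00000124575.6, chromosome 6, 26234268 to 26234933) was at 40.5, 44.98 and 45.1 TPM in Cas9, against 114, 117 and 87.8 TPM in Mock. It fell by 1.26 (SE 0.17, limma adjusted p 0.039). LRP6KO libraries lay with Cas9, at 42.4, 40.05 and 30.3 TPM, and dnLEF1 libraries with Mock, at 111, 98.9 and 78.9 TPM. The promoter of this gene, which RefSeq lists as H1-3, holds the H1 box AAACACA, a short element known from H1 gene promoters. It is shown at chr6:26234938-26235237 on the minus strand, with the box in capitals 119 bases before the start.
HIST1H1D: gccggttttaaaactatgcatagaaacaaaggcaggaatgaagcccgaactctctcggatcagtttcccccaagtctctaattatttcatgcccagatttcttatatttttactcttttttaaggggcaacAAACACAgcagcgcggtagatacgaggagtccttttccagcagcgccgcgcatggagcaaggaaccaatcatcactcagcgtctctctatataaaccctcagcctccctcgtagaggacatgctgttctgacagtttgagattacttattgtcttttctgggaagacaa
The same letters on either strand occur in 5.76% of all promoters of this length. Among 58 histone genes of the HIST clusters, examined because this one was called, the median difference was -0.10 with 35 below 0. Over all genes the median was -0.03 and 54.1% were below 0. At an unadjusted p under 0.05, 8 histone genes were lower and 0 higher by limma, beside 4.98% and 4.5% of all genes. HIST1H1D was the 1 called and is counted in the 35 and in the 8. HIST1H2AJ, a core histone H2A gene, was at 90.5, 59.8 and 49.5 TPM in Cas9, against 139, 152 and 131 TPM in Mock, without overlap and not called. Of 22 proliferation genes 1 was higher (MCM5) and 1 lower (TYMS) at an unadjusted p under 0.05, and none was called.

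ATP5MF and BUD23 both lie on chromosome 7. ATP5MF (ENSG00000241468.7, chromosome 7, 99448475 to 99466331), a small membrane subunit of the mitochondrial ATP synthase, was at 774, 836 and 870.1 TPM in Cas9, against 1297, 1299 and 1292 TPM in Mock. It fell by 0.65 (SE 0.08, limma adjusted p 0.039). BUD23 (ENSG00000071462.11, chromosome 7, 73683025 to 73705161), the methyltransferase of small-subunit rRNA, was at 135, 156 and 169.5 TPM in Cas9, against 258, 251 and 242 TPM in Mock. It fell by 0.71 (SE 0.10, limma adjusted p 0.039). In both genes Mock stood above all 9 other SW620 libraries, which did not go over 964 TPM for ATP5MF or 173 TPM for BUD23. Over all 14 called genes, Mock lay above the other 9 libraries in 8 genes and below them in 1, whereas Cas9 lay above the other 9 in 1 gene and below them in 3. Over all tested genes these shares were 1.58% and 0.860% for Mock above and below, and 0.802% and 0.391% for Cas9; the 14 genes were chosen on the difference between these groups, so a larger share among them is no separate result.

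DPEP1, a membrane dipeptidase that cleaves leukotrienes and glutathione products, was the protein-coding gene that rose. DPEP1 (ENSG00000015413.9, chromosome 16, 89613308 to 89638456) was at 24.2, 26.8 and 26.4 TPM in Cas9, against 11.6, 10.7 and 14.01 TPM in Mock. It rose by 1.04 (SE 0.16, limma adjusted p 0.0391), and the Cas9 values were above those of all other SW620 libraries. BRICD5, a little studied gene with a BRICHOS domain, was at 2.14, 1.27 and 1.89 TPM in Cas9, against 7.50, 6.98 and 13.4 TPM in Mock. It fell by 1.86 (SE 0.28, limma adjusted p 0.0391). The remaining 3 called genes are uncertain. The pseudogene PRR20FP was listed at 0 in all Cas9, LRP6KO and dnLEF1 libraries and at 5.17, 3.04 and 12.3 TPM in Mock, and all of its 50-base stretches also occur in PRR20A to PRR20E. RF00017, a copy of the 7SL signal recognition RNA family, was listed at 0 in all Cas9 libraries and at 4.09, 6.54 and 5.66 TPM in Mock. AP005018.2, a pseudogene outside the naming rule and named after its values were seen, was at 2.45, 2.04 and 4.35 TPM in Cas9 and listed at 0 in Mock, and 66.6% of its stretches are shared with other genes.

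The hypoxia list held CA9 and other genes with lower values in Cas9. Of its 20 genes 18 were tested, 14 were below 0, the median was -0.37 and CA9 was the 1 called member; 7 members had an unadjusted p under 0.05 and all 7 were lower (4.98% of all genes were lower at that level and 4.50% higher). EGLN3, the HIF-induced prolyl hydroxylase that limits HIF, was at 13.2, 17.4 and 11.1 TPM in Cas9, against 23.7, 37.8 and 25.8 TPM in Mock. DDIT4 was at 72.0, 127 and 85.1 TPM in Cas9, against 162, 197 and 182 TPM in Mock. Neither overlapped and neither passed the threshold (differences of -1.01 and -0.96, SE 0.21 and 0.20, limma adjusted p 0.137 each). BNIP3L, a mitophagy receptor, was at 38.1, 43.2 and 32.0 TPM in Cas9, against 65.5, 56.6 and 54.6 TPM in Mock (limma adjusted p 0.237). KDM3A, P4HA1 and ERO1A, a histone demethylase, a collagen hydroxylase subunit and an oxidase of the endoplasmic reticulum, were lower by 0.55, 0.47 and 0.33 at unadjusted p of 0.0165, 0.0448 and 0.0459. Other members did not separate the groups: PDK1, which restrains pyruvate entry into mitochondria, was at 28.4, 32.2 and 34.5 TPM in Cas9, against 35.3, 33.9 and 28.6 TPM in Mock. The median of the list stayed between -0.48 and -0.32 over 15 alternative settings.

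Glycolysis genes had smaller differences of the same sign. Of 22 genes, 20 were below 0 (median of -0.16), beside 54.1% of all genes. At an unadjusted p under 0.05 in limma 8 were lower and 0 higher, beside 4.98% and 4.5% of all genes, and none was called. TPI1, triosephosphate isomerase, was at 2028, 2507 and 2276 TPM in Cas9, against 2747, 3249 and 2804 TPM in Mock (difference of -0.37, SE 0.09, limma adjusted p 0.162). ENO1, enolase 1, was at 2260, 2858 and 2664 TPM in Cas9, against 3175, 3326 and 3086 TPM in Mock. The values of both enzymes did not overlap between the groups. GAPDH did not separate them, at 8200.02, 9038 and 8281 TPM in Cas9, against 7536, 8242 and 8901 TPM in Mock.

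Transcripts made inside mitochondria were higher in Cas9. All 13 mitochondrially encoded protein genes were above 0 (median of 0.37, between 0.31 and 0.42 in the 14 settings that keep these genes). In limma 11 of them had an unadjusted p under 0.05, beside 9.48% of all genes, and none was called. The 13 genes are parts of the mitochondrial share of TPM, which was 9.54% to 13.7% in Cas9 and 7.21% to 8.41% in Mock. They are therefore not independent observations. MT-CO1, a core subunit of cytochrome c oxidase, was at 4468, 2610.4 and 3410 TPM in Cas9, against 1955, 1815 and 2140 TPM in Mock (difference of 0.80, SE 0.15, limma adjusted p 0.102). MT-ND5, a complex I subunit, was at 941, 658 and 783 TPM in Cas9, against 409, 451 and 555 TPM in Mock. Cas9 replicate 1, the one of these 6 libraries with the largest mitochondrial share, was the highest of them in both genes. LRP6KO was the lower and dnLEF1 the higher group of the other pair, with MT-CO1 at 2532 to 2612 TPM in LRP6KO and 3263 to 3891 TPM in dnLEF1. Of 22 nuclear genes of oxidative phosphorylation 18 were below 0 (median of -0.09), beside 54.1% of all genes. Only COX4I1 of these 22 was higher at an unadjusted p under 0.05 in limma.

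**Figure D2:**
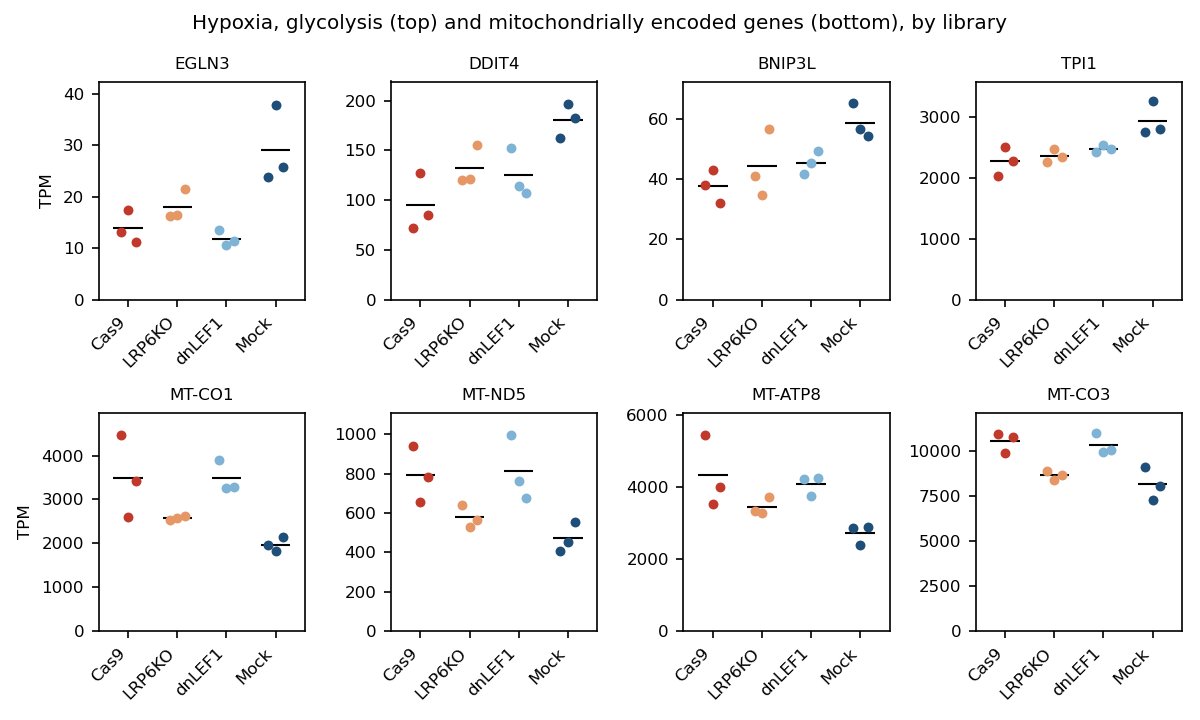
TPM (y axis) of 3 hypoxia-list genes and the glycolytic enzyme TPI1 (top) and of 4 mitochondrially encoded genes (bottom) in each SW620 library by group (x axis); points are libraries and bars are means of 3. Cas9 lies below Mock in the top row and above it in the bottom row without overlap, and none of these 8 genes passed the adjusted threshold.

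Wnt target genes had a median of 0.14, with 13 of 20 above 0. Over all genes the median was -0.03, with 8772 of 19196 above 0. At an unadjusted p under 0.05 in limma, 6 Wnt targets were higher (LEF1, APCDD1, AXIN2, MYC, TCF7 and CD44) and 1 was lower (SOX4), and none was called. Over all genes 4.5% were higher and 4.98% lower at that level. AXIN2, the feedback scaffold of the destruction complex, was at 44.2, 33.8 and 37.5 TPM in Cas9, against 24.3, 26.1 and 29.7 TPM in Mock. The values did not overlap (difference of 0.51, SE 0.19, limma adjusted p 0.416), and LRP6KO had 34.7, 31.3 and 34.6 TPM, near the Cas9 control. APCDD1, a membrane inhibitor of Wnt signalling, was at 11.3, 8.77 and 11.2 TPM in Cas9, against 3.6, 3.67 and 3.75 TPM in Mock (limma adjusted p 0.143). The stem cell receptor LGR5 overlapped, at 7.46, 6.69 and 8.01 TPM in Cas9, against 9.04, 4.09 and 6.47 TPM in Mock (difference of 0.21, SE 0.26, limma adjusted p 0.869; -0.05 without Mock replicate 2).

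Genes of intestinal identity went both ways. Of 20 listed 10 were tested, with a median of 0.06, which ran from -0.31 to 0.16 over 15 alternative settings. At an unadjusted p under 0.05 in limma 3 were higher and 3 lower, and none was called. HNF4A, a transcription factor of gut epithelium, was at 49.3, 39.3 and 38.0 TPM in Cas9, against 21.2, 24.3 and 27.9 TPM in Mock (difference of 0.76, SE 0.14, limma adjusted p 0.0909). TFF3, the goblet cell trefoil peptide, was at 262, 338 and 290.1 TPM in Cas9, against 490.5, 523 and 462 TPM in Mock (difference of -0.73, SE 0.14, limma adjusted p 0.111). Neither gene overlapped between the groups, and the transmembrane mucin MUC13 lay with HNF4A, at 6.83, 5.79 and 5.84 TPM in Cas9, against 3.09, 2.40 and 3.23 TPM in Mock. Epithelial genes were divided as well, with 2 higher (CLDN3 and CLDN7) and 6 lower (KRT19, CLDN4, KRT18, ELF3, EPCAM and KRT8) of 15 at an unadjusted p under 0.05 in limma. Over all genes 4.5% were higher and 4.98% lower at that level.

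In the remaining lists of tumour cell genes no member was called. The counts below stand beside 4.5% of all genes higher and 4.98% lower at an unadjusted p under 0.05 in limma. The motility-associated calcium-binding gene S100A4 was at 3233, 3121 and 3357 TPM in Cas9, against 3817, 4280.3 and 3964 TPM in Mock, and it was among 3 of 15 mesenchymal genes lower at an unadjusted p under 0.05, with 0 higher (limma). Interferon-induced genes had a median of -0.22 with 4 of 19 lower (BST2, OAS1, ISG15 and IFI27) and 1 higher (IFITM3). Cholesterol synthesis genes had 6 of 18 lower and 2 higher, led by CYP51A1, the lanosterol demethylase on chromosome 7, at 18.4, 17.6 and 19.7 TPM in Cas9, against 34.6, 29.5 and 35.4 TPM in Mock. Immediate-early and stress genes had 4 of 20 higher and 2 lower, and the 4 include EGR1, whose Mock replicate 3 (34.8 TPM) reached into the Cas9 range of 32.8 to 43.9 TPM. Among 18 p53 targets CDKN1A alone was at an unadjusted p under 0.05 (8.26, 10.3 and 6.24 TPM in Cas9, 5.63, 4.37 and 7.27 TPM in Mock), and the groups overlapped. At the same level of p, TAP2 was lower of 14 HLA and antigen processing genes, 1 was higher and 2 were lower of 17 unfolded protein and amino acid response genes, and 2 were higher and 2 lower of 15 NF-kB genes. Of 12 YAP targets 1 was higher, and of 12 TGF-beta and BMP genes BMP4 and SMAD6 were higher and ID1 lower.

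**Figure D3:**
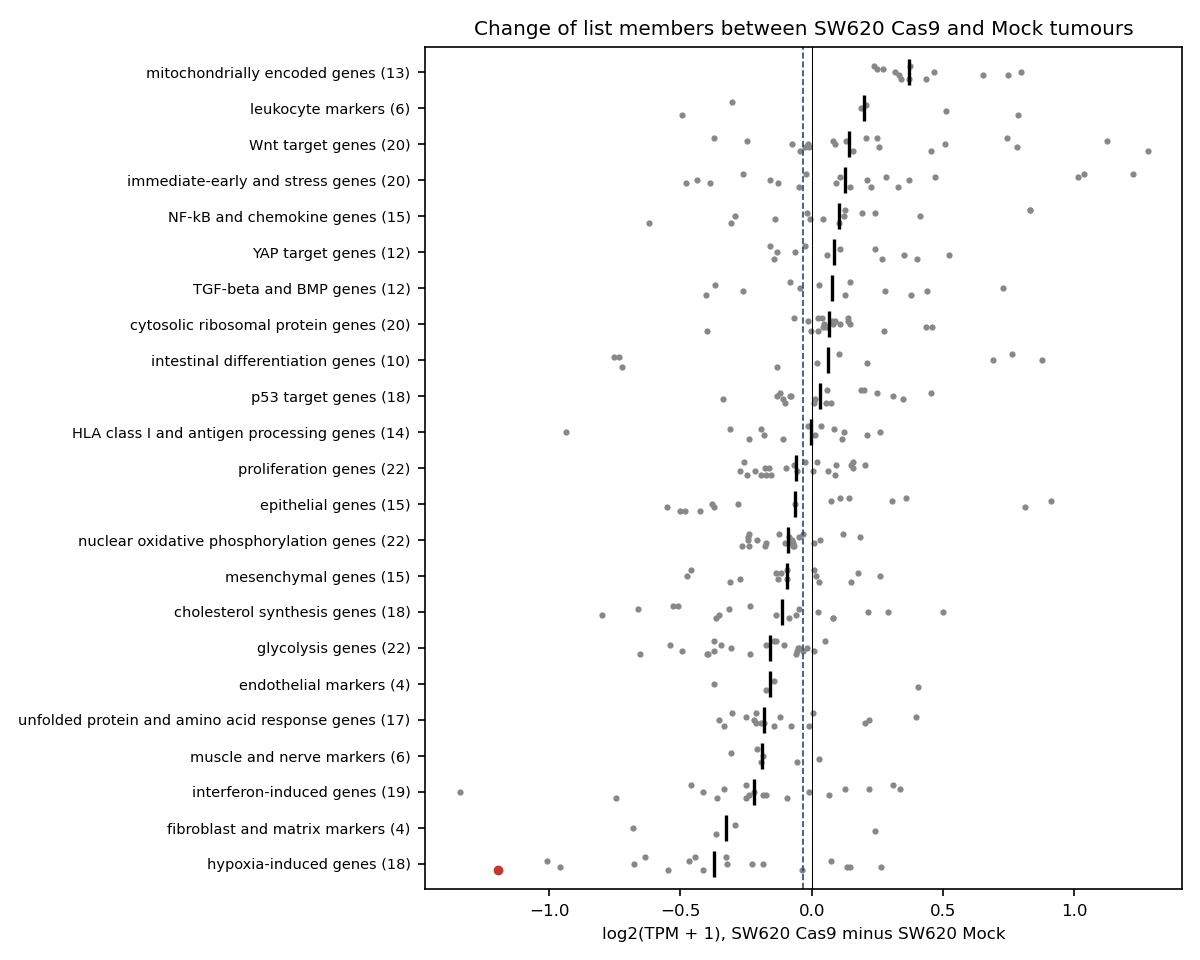
Difference in log2(TPM + 1), Cas9 minus Mock (x axis), of each tested member of 23 gene lists (rows, number tested in brackets); black bars are list medians, the dashed line is the median of all genes, and red marks the called gene. Mitochondrially encoded genes lie wholly above 0, hypoxia-induced genes have the lowest median (-0.37), and CA9 is the 1 called member of any list.

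Among 20 cytosolic ribosomal protein genes, which encode parts of the ribosome, the median was 0.07 and none was called. At an unadjusted p under 0.05, 2 were higher and 1 lower, beside 9.48% of all genes, and 4 did not overlap between the groups, beside 15.7%. RPL13 was at 3432, 3733 and 3592 TPM in Cas9, against 2620, 2711 and 2626 TPM in Mock (difference of 0.43, SE 0.07, limma adjusted p 0.0613). RPL10 was at 2666, 2659 and 2839 TPM in Cas9, against 3615, 3638 and 3500 TPM in Mock (difference of -0.40, SE 0.07, limma adjusted p 0.0695). RPS12 was at 2187, 1745 and 2057 TPM in Cas9, against 1465, 1408 and 1466 TPM in Mock. None of the 3 overlapped between the groups. RPL13 lies on chromosome 16 and RPL10 on chromosome X, inside stretches whose genes shifted together.

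Neighbouring genes were averaged in windows of 10 Mb. A window took the genes with a mean of at least 5 TPM, needed at least 10 of them, and was set relative to the median window of its library. Of 275 windows 8 were called between Cas9 and Mock (2.91%), 3 higher and 5 lower. They lay on chromosomes 7, 4, X, 16 and 13. Of the genes in these windows, 123 of 328 had an unadjusted p under 0.05 (37.5%), against 1156 of 9683 in the other windows (11.9%); both shares use the contrast that chose the windows. Among the 14 called genes, 2 lay in called windows, ATP5MF and DPEP1, beside 328 of all 19196 tested genes. Both are part of the means of their windows, so this is no separate result.

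Chromosome 7 held 4 called windows in a row, from 90 to 130 Mb. In the first, from 90 to 100 Mb, the mean log2(TPM + 1) of 45 genes relative to the library's median window was -0.16, -0.10 and -0.12 in Cas9, against 0.24, 0.18 and 0.26 in Mock. It fell by 0.35 (SE 0.04, limma adjusted p 0.001), with 42 of 45 genes below 0 (55.9% of genes in all windows). These genes make up the mean that was called, so their shared sign is no separate result. The same holds for such counts in the other called windows. LRP6KO (-0.12 to -0.07) and dnLEF1 (-0.12 to -0.05) lay with Cas9, so that Mock stood apart from the other 9 libraries. Its genes included ATP5MF, CYP51A1, and STEAP1, a metalloreductase of the cell membrane, which was at 50.3, 45.2 and 58.6 TPM in Cas9, against 96.1, 93.6 and 89.1 TPM in Mock. The window from 110 to 120 Mb fell by 0.42 (SE 0.08, limma adjusted p 0.0101), with all 11 genes below 0. It holds the caveolins CAV1 and CAV2, which shape membrane pits, and MET, the receptor of hepatocyte growth factor. CAV1 was at 207, 244 and 226 TPM in Cas9, against 336, 383 and 360.3 TPM in Mock, and MET at 60.6, 65.4 and 60.1 TPM in Cas9, against 94.5, 95.0 and 76.6 TPM in Mock. The windows from 100 to 110 Mb (-0.20, 74 genes, limma adjusted p 0.0274) and from 120 to 130 Mb (-0.23, 20 genes, limma adjusted p 0.0279) were smaller in size, and Mock stood above the other 9 libraries in each. The windows on either side had the same sign but were not called, with Cas9 and Mock libraries overlapping. They differed by -0.43 from 80 to 90 Mb and by -0.20 from 130 to 140 Mb (limma adjusted p 0.313 each). From 140 to 150 Mb the difference was 0.01. Over all 275 windows Mock lay above the other 9 libraries in 2.55% and below them in 1.09%. The called windows were chosen on the difference between Cas9 and Mock, so a larger share among them is no separate result.

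The first 10 Mb of chromosome 4 rose. The 49 genes there averaged 0.30, 0.32 and 0.24 in Cas9, against -0.13, -0.13 and 0.02 in Mock (difference of 0.37, SE 0.06, limma adjusted p 0.00567). Of these genes, which make up the called mean, 2 were below 0, beside 55.9% of genes in all windows. All 9 other SW620 libraries were above Mock (0.22 to 0.40 in LRP6KO, 0.14 to 0.26 in dnLEF1). WFS1, an endoplasmic reticulum membrane protein, was at 72.5, 96.7 and 90.03 TPM in Cas9, against 56.2, 39.6 and 58.8 TPM in Mock. RNF4, a SUMO-targeted ubiquitin ligase, was at 61.2, 58.2 and 57.9 TPM in Cas9, against 38.0, 30.98 and 42.5 TPM in Mock. Neither gene overlapped or was called by itself.

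On chromosomes X, 16 and 13 the 4 groups paired in other ways. From 150 to 160 Mb of chromosome X, 46 genes averaged 0.22, 0.37 and 0.17 in Cas9, against 0.49, 0.73 and 0.72 in Mock (fell by 0.39, SE 0.08, limma adjusted p 0.0202). Here dnLEF1 lay near Cas9 (0.23 to 0.39) and LRP6KO near Mock (0.63 to 0.83). TAZ, the symbol used here for the cardiolipin-remodelling gene tafazzin, was at 12.6, 14.6 and 13.1 TPM in Cas9, against 26.0, 28.6 and 31 TPM in Mock, and FUNDC2, BCAP31, FAM50A and NAA10 were lower without overlap too. From 80 to 90 Mb of chromosome 16, 63 genes averaged 0.27, 0.36 and 0.30 in Cas9, against -0.16, 0.05 and 0 in Mock (rose by 0.35, SE 0.08, limma adjusted p 0.0274), with LRP6KO near Cas9 (0.18 to 0.38) and dnLEF1 overlapping Mock (-0.10 to 0.15). This stretch holds DPEP1, RPL13 and CHMP1A, a subunit of the ESCRT membrane-cutting machinery, at 96.6, 100.6 and 101.8 TPM in Cas9, against 57.9, 61.7 and 74.1 TPM in Mock. From 20 to 30 Mb of chromosome 13, 20 genes averaged 0.39, 0.35 and 0.47 in Cas9, against 0.11, 0 and 0.09 in Mock (rose by 0.34, SE 0.08, limma adjusted p 0.0279), with dnLEF1 near Cas9 (0.36 to 0.40) and LRP6KO overlapping Mock (-0.18 to 0.17). POLR1D, a subunit shared by RNA polymerases I and III, was at 121, 119 and 114 TPM in Cas9, against 71.7, 73.0 and 88.2 TPM in Mock. The windows at 90 Mb of chromosome 7 and at the start of chromosome 4 were called in each of 11 alternatives with the same window size, the one at 110 Mb of chromosome 7 in 10 and the one on chromosome X in 7; the other 4 were called in 3 or 4 of 11.

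**Figure D4:**
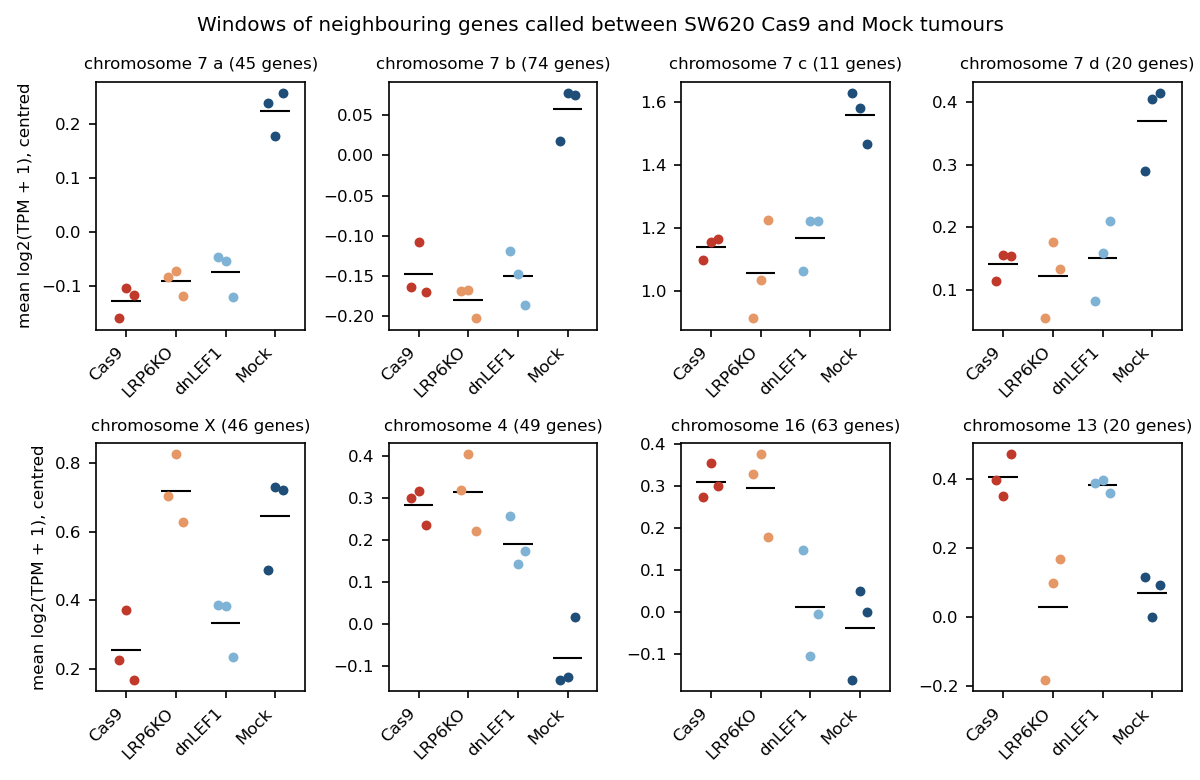
Mean log2(TPM + 1) of the genes in each of the 8 called 10 Mb windows, relative to the median window of the library (y axis), by SW620 group (x axis); points are libraries, bars are means of 3, and a to d run in order along chromosome 7. Mock stands above the other 9 libraries in the 4 chromosome 7 windows and below them on chromosome 4, dnLEF1 lies near Cas9 on X and 13, and LRP6KO lies near Cas9 on 16. Over all 275 windows Mock lay above the other 9 in 2.55% and below them in 1.09%.

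The other SW620 pair with the same 2 delivery methods, LRP6KO from CRISPR and dnLEF1 from lentivirus, shares no library with the controls and was set beside them. Its groups also differ in their Wnt perturbation, and LRP6KO cells were selected with puromycin, so delivery cannot be told apart from these. Both comparisons come from the same limma fit and have the same SE for a gene, so a call in both is not wholly separate. In LRP6KO minus dnLEF1, 110 genes were called (0.573%) in that fit. Of the 14 genes called between the controls, 7 had the same sign there, beside 44.0% of all genes. DPEP1 (1.10, limma adjusted p 0.0107) and HIST1H1D (-1.33, limma adjusted p 0.00450) were called in the same direction, and ANXA1 was called in the opposite one (1.02, limma adjusted p 0.00952). CA9 had a difference of -0.43 there (limma adjusted p 0.360), with 98.6 to 114 TPM in LRP6KO and 130.3 to 160.0 TPM in dnLEF1. Of 275 windows 5 were called (1.82%). The chromosome X and 13 windows were among them in the opposite direction (0.38 and -0.35, limma adjusted p 0.0318 and 0.0357), and chromosome 7 from 90 to 100 Mb (-0.02, limma adjusted p 0.927) and the chromosome 16 window (0.28, limma adjusted p 0.102) were not. Over all tested genes Pearson's r between the 2 sets of differences was -0.10, a description across genes, which are not independent replicates.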

How the data were processed

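Human gene expression was analysed in the 12 SW620 xenograft libraries, 3 each of Cas9, LRP6KO, dnLEF1 and Mock. The deposited values are TPM per gene, and per the submitters' processing notes the tools were Trimmomatic 0.35, Bowtie 1.2 and RSEM 1.2.31 with builds hg38 and mm10. How reads were divided between species, the annotation release and the strand of counting are not given in the sources used here. TPM keeps no depth, so no counting interval is given. Of 58381 identifiers 45 second copies of pseudoautosomal genes, 0 throughout, were left out, and 58216 of the other 58336 were named and placed from GENCODE (GRCh38).

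Genes reaching 1 TPM or more in 3 or more of the 12 libraries were tested with limma 3.58.1 (R 4.3.3, intensity trend) on log2(TPM + 1), 1 mean per group, 8 residual degrees of freedom, two-sided, Benjamini-Hochberg over all 19196 genes at 0.05. SW480 groups were left out of the fit because their replicates spread more. An exact permutation test of 3 against 3 cannot go below 0.1. Windows were tested the same way. The tests were tried on simulated data. Genes were named by rule: up to 12 called genes each way, with 5 TPM or more on average where higher and libraries that do not overlap, up to 3 members per list, the called switch genes, and LEF1, LRP6, AXIN2, LGR5 and KRT19; genes given as members of a family, list or window beside these were picked with values seen. The comparison, the 23 lists (393 genes, 342 tested) and the tests were chosen with earlier results of these data known. Promoters came from RefSeq (GRCh38.p14), and stretches of 50 bases were compared between GENCODE transcripts. No sample label or header gives a batch. Some members of the gene lists are counted but not reported here by name.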

Additional observations from a re-analysis of the deposited data

How the results depend on the processing

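The count of called genes moved with nearly every choice. Against 14 as reported, limma called 19 with a pseudocount of 0.1, 27 with a mean of at least 5 TPM, 21 with the mitochondrially encoded genes taken out, 3 after median-ratio scaling, 8 with Cas9 and Mock alone in the fit, 124 with array weights, 0 with no filter on low values (2733 at an unadjusted p under 0.05) and 0 with all 6 xenograft groups in the fit (1154). The share of calls that were higher was 14.3% as reported, 21.1% with a pseudocount of 0.1, 29.6% with a mean of at least 5 TPM, 33.3% after median-ratio scaling, 38.1% without mitochondrial genes, 39.5% with array weights and 62.5% with Cas9 and Mock alone in the fit, where higher calls were the majority. It was 0 of 3 with a replicate block, and the 1 gene called without Mock replicate 2 was higher. Leaving out 1 replicate gave 0 to 4 called genes and 2 to 7 called windows, against 8 windows as reported. With a replicate block 3 genes and 5 windows were called. Deviations of same-numbered Cas9 and Mock libraries correlated at -0.0221, -0.000683 and -0.0340. Those of unlike-numbered libraries lay between -0.0227 and 0.0497. With 3 libraries per group these values cannot show whether samples shared a batch. LRP6 turned to 0.0101 without mitochondrial genes and lay between -0.17 and 0.17 when 1 replicate was left out (above 0 without Cas9 replicate 1 or Mock replicate 2). LGR5 lay between -0.0493 (without Mock replicate 2) and 0.44, and the muscle marker MYH11 between -0.37 and 0.11 (without Mock replicate 3). None of these was called. List medians changed sign in 4 of 15 settings for HLA class I and antigen processing genes. They did so in 3 each for intestinal differentiation genes and p53 targets, and in 1 each for epithelial and NF-kB genes. The cause of these shifts was not tested. No depth is known, so what depth limits could not be measured.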

Other observations

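Among genes that mark other cell types, CD4, a T helper cell and macrophage surface receptor, was at 17.2, 13.5 and 17.1 TPM in Cas9, against 7.74, 8.55 and 10.1 TPM in Mock. The values did not overlap, and the difference of 0.79 (SE 0.18) did not pass the threshold (limma adjusted p 0.143). In the pair of LRP6KO and dnLEF1 tumours CD4 was called in the same direction (1.04, limma adjusted p 0.0222), with 17.3, 13.5 and 15.8 TPM in LRP6KO and 6.13, 6.48 and 8.67 TPM in dnLEF1. TAGLN, of the muscle and nerve list, was called in that pair as well (1.16, limma adjusted p 0.0221). Its difference between Cas9 and Mock had the opposite sign and was not called (-0.195, limma adjusted p 0.823). CD3E and TYROBP, a T cell receptor component and an adaptor of myeloid cells, were at 0 in every Cas9 library and every dnLEF1 library. LUM, the matrix proteoglycan lumican, was the fibroblast marker with the smallest p, at 3.83, 5.66 and 5.45 TPM in Cas9, against 10.4, 7.63 and 7.73 TPM in Mock (limma adjusted p 0.457). No marker of the 4 lists of other cell types was called between Cas9 and Mock.

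The windows next in order of p lay on chromosome 6. From 140 to 150 Mb the mean log2(TPM + 1) of 23 genes relative to the median window was 0.0038, 0.11 and 0.09 in Cas9, against -0.08, -0.23 and -0.10 in Mock (difference of 0.21, SE 0.05, limma adjusted p 0.0639). From 130 to 140 Mb the mean log2(TPM + 1) of 25 genes relative to the median window was -0.06, 0.20 and -0.02 in Cas9, against -0.29, -0.34 and -0.26 in Mock (difference of 0.34, SE 0.09, limma adjusted p 0.0639). RPS12 lies there, and so does TNFAIP3, an inhibitor of NF-kB signalling, which was at 19.1, 12.2 and 22.8 TPM in Cas9, against 9.13, 7.27 and 12.4 TPM in Mock. Cas9 replicate 2 lay inside the Mock range of TNFAIP3. From 70 to 80 Mb of chromosome 7, where BUD23 lies, 52 genes differed by -0.18 (limma adjusted p 0.111).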
